A study of Mus musculus with 6 samples.

Results

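Mitochondrial ribosomal proteins, the proteins of the ribosome that works inside mitochondria, were described here at the level of their transcripts. They were taken as every row of the expression table that is annotated as protein coding and whose symbol is Mrpl or Mrps followed by a digit. This gave 78 of 53715 genes, 49 with the large subunit symbol Mrpl and 29 with the small subunit symbol Mrps. No measured value entered this rule, although the members were chosen with earlier results of these data known. The rule left out 5 processed pseudogenes with a matching symbol. A filter that asked for an average level of at least 1 FPKM across the 6 libraries left 76 of the 78 for testing, 47 of the large and 29 of the small subunit. FPKM counts fragments per kilobase of gene length after scaling for depth, so levels of different genes are compared per length.

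The libraries came from an immortalized mouse podocyte line, that is, from kidney epithelial cells that wrap the glomerular capillaries. In 3 libraries the genotype was labelled TFEB knockdown and the cells had been given a short interfering RNA (siRNA), and in the other 3 the genotype was labelled WT and the cells had been given a scrambled siRNA. All cells were grown at 33 °C with 10% serum and interferon gamma and then moved to 37 °C, 5% serum and collagen at 12 mg/ml to differentiate for 10 to 14 days. All 6 libraries share this 1 line, and the number of siRNAs, their dose and the time to harvest were not stated in the sources used here. Per-library values below stand in the order of replicates 1, 2 and 3.

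The mitochondrial ribosome translates the few messenger RNAs of mitochondrial DNA, which encode membrane subunits of the respiratory chain and of ATP synthase. Its ribosomal RNAs are made inside mitochondria, while its proteins are encoded in the nucleus, made in the cytosol and imported, so that parts from both genomes have to be assembled. Some of these proteins descend from the bacterial ribosome and others are found only in mitochondria. TFEB is a transcription factor known for switching on lysosomal and autophagy genes through an E-box called the CLEAR element.

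Reads recovered from the FPKM values totalled 18062898 to 20010130 in the TFEB siRNA libraries and 20143910 to 20610888 in the scrambled siRNA libraries. Tfeb stood at 0.639, 0.714 and 0.822 FPKM with TFEB siRNA and at 1.8, 2.05 and 2.27 FPKM with scrambled siRNA. Every TFEB siRNA library lay below every scrambled siRNA library, and the mean was 35.5% of that with scrambled siRNA (log2 fold change -1.05, SE 0.13, limma adjusted p = 0.00148). Of 12 podocyte markers 7 passed the filter, and of these 2 were higher (Podxl among them, by a log2 fold change of 0.82), 1 was lower (Synpo, -0.64) and 4 were not called, while Nphs1, Wt1, Ptpro and Tcf21 were among those that did not. The share called was 42.9% of these 7 markers, beside 33.3% of all genes tested. The summed levels of markers of other cells overlapped between the groups for the 5 endothelial genes (0.351 to 0.476 FPKM with TFEB siRNA and 0.340 to 0.575 FPKM with scrambled siRNA), the leukocyte genes (3.81 to 5.18 and 4.91 to 6.75 FPKM) and the 7 tubule and parietal genes (77.7 to 84.8 and 81.3 to 95.6 FPKM). The summed levels of the 5 mesangial and fibroblast markers did not overlap, at 40.3 to 41.5 FPKM with TFEB siRNA and 36.2 to 37.9 FPKM with scrambled siRNA. Of the 3 tested among them, Pdgfrb (log2 fold change -0.01) and Gata3 (0.07) were not called, and the collagen gene Col1a1 was higher, at 7.31 ± 1.14 FPKM with TFEB siRNA and 2.54 ± 0.382 FPKM with scrambled siRNA (log2 fold change 1.36, SE 0.14, adjusted p = 0.000793). The part of these marker differences in the results below was not tested. In bulk RNA, fewer cells with a transcript and less of it per cell cannot be told apart.

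Most mitochondrial ribosomal protein transcripts did not pass the test, and those that did moved in both directions. Of 47 large subunit members, 5 were called higher, 5 lower and 37 were not called. Of 29 small subunit members, 0 were called higher, 3 lower and 26 were not called. A gene was called at a limma adjusted p below 0.05, adjusted over all 12257 genes tested, of which 33.3% were called, 16.9% higher and 16.4% lower. Over both subunits 13 of 76 members (17.1%) were called, which is a lower share than that of all genes tested, although that difference was not tested. At an unadjusted p below 0.05 there were 7 higher and 8 lower members in the large subunit and 1 higher and 5 lower in the small subunit, which had 0 higher also with voom weights on the recovered reads.

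The changes were small beside those of other genes. The median size of the log2 fold change was 0.0987 over the members and 0.189 over all genes tested, and 7 members (9.21%) moved by more than 0.3 in either direction, against 30.2% of all genes tested. The median log2 fold change was -0.01 in the large subunit, with a range of -0.54 to 0.47, and -0.09 in the small subunit, with a range of -0.56 to 0.25, beside 0.02 over all genes tested. Of the 76 members 44 (57.9%) had a log2 fold change below 0, against 47.8% of all genes tested, a difference that was not tested. The groups did not overlap in 24 of 76 members (31.6%), 10 of them higher and 14 lower, against 48.7% of all genes tested, 25.3% higher and 23.5% lower. Of the 63 members that were not called, 57 had a 95% interval of the log2 fold change that lay within 0.5 of 0. A miss of the threshold does not show that a member stayed the same.

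**Figure D1:**
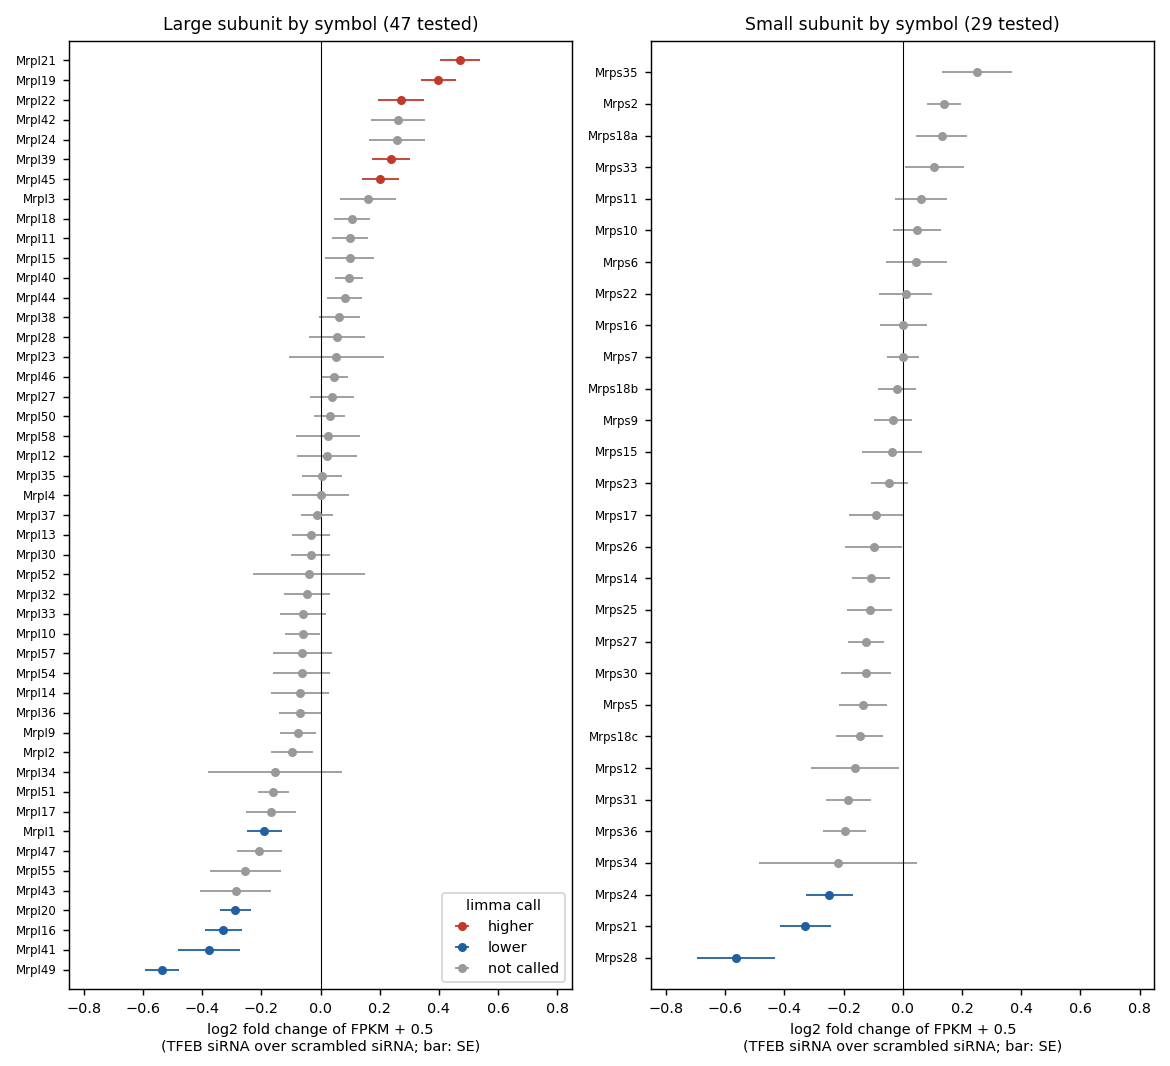
Log2 fold change of FPKM + 0.5, TFEB siRNA over scrambled siRNA, for the 47 large subunit members (left) and the 29 small subunit members (right) that were tested, with bars for the SE and colour for the limma call. Called members lie at both ends in the large subunit, from -0.54 for Mrpl49 to 0.47 for Mrpl21, and at the lower end in the small subunit, down to -0.56 for Mrps28.

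Members that descend from the bacterial ribosome and members found only in mitochondria were called in both directions. Of 48 tested members with a bacterial relative 3 were higher and 6 lower, with a median log2 fold change of -0.03 and 18.8% called. Of 27 mitochondria-specific members 2 were higher and 2 lower, with a median of -0.04 and 14.8% called, beside 33.3% of all genes tested.

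In the large subunit, Mrpl49, Mrpl41, Mrpl16, Mrpl20 and Mrpl1 fell. Mrpl49, a mitochondria-specific protein on chromosome 19 (mm10, chr19:6053630-6057751, minus strand), stood at 20.5, 19.3 and 20.3 FPKM after TFEB siRNA, against 31, 28.1 and 28.9 FPKM after scrambled siRNA. All 3 TFEB siRNA libraries lay below all 3 scrambled siRNA libraries with a wide gap between them. Its mean was 1.46-fold lower, at 20.1 ± 0.648 FPKM with TFEB siRNA and 29.4 ± 1.52 FPKM with scrambled siRNA (SD, n = 3 each; log2 fold change -0.54, SE 0.06, adjusted p = 0.000925). The call held in every alternative setting, with a highest adjusted p of 0.00584 when 1 library was left out. Mrpl49 overlaps Syvn1 on the opposite strand, and whether counting used strand is not known from the sources used here.

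Mrpl16, the relative of bacterial L16, which sits close to the site where peptide bonds form, had the highest mean FPKM of all members. That rank depends on its deposited length of 1122 bases, beside 3169 bases for its annotated exons joined. Mrpl16 stood at 41.7, 39.1 and 44.9 FPKM in the TFEB siRNA libraries, against 51, 53.2 and 53.9 FPKM in the scrambled siRNA libraries. The groups did not overlap, and the means were 41.9 ± 2.93 FPKM with TFEB siRNA and 52.7 ± 1.5 FPKM with scrambled siRNA (log2 fold change -0.33, SE 0.06, adjusted p = 0.00784). Mrpl20, the relative of a bacterial protein needed early in the assembly of the large subunit, stood at 23.7, 21.8 and 21.8 FPKM with TFEB siRNA and at 27.3, 27.4 and 27.8 FPKM with scrambled siRNA. The scrambled siRNA libraries were nearly equal to each other and all above the TFEB siRNA libraries (log2 fold change -0.29, SE 0.05, adjusted p = 0.00638). Both calls held when any 1 library was left out, with highest adjusted p-values of 0.0337 for Mrpl16 and 0.0295 for Mrpl20.

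Mrpl41, a mitochondria-specific protein that has also been described as a partner of Bcl-2, stood at 18.7, 15.7 and 17 FPKM after TFEB siRNA, against 19.3, 22.9 and 25.1 FPKM after scrambled siRNA. Its groups did not overlap, but scrambled siRNA replicate 1 lay close to the TFEB siRNA libraries (log2 fold change -0.38, SE 0.11, adjusted p = 0.0314). The call was lost without any of 4 libraries (up to an adjusted p of 0.0979 without TFEB siRNA replicate 2), and 11.3% of its 50-base words recur in Gm6434. Mrpl1, whose bacterial relative forms the mobile L1 stalk that guides used tRNA out of the ribosome, stood at 4.74, 4.76 and 4.89 FPKM in the TFEB siRNA libraries, against 5.77, 5.51 and 5.36 FPKM in the scrambled siRNA libraries. These groups did not overlap either, and the change was the smallest in size of the called members (log2 fold change -0.19, SE 0.06, adjusted p = 0.0431). It lost its call without each of the 6 libraries in turn (up to 0.117) and with the replicate number as a block (adjusted p = 0.0540).

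Mrpl21, Mrpl19, Mrpl22, Mrpl39 and Mrpl45 of the large subunit rose. Mrpl21, the relative of bacterial L21, a protein that binds the large ribosomal RNA, lies at chr19:3282901-3292837 and stood at 8.01, 8.35 and 7.72 FPKM with TFEB siRNA and at 6.09, 5.6 and 5.28 FPKM with scrambled siRNA. The lowest TFEB siRNA library was above the highest scrambled siRNA library, and the mean was 1.42-fold higher, at 8.03 ± 0.314 FPKM with TFEB siRNA and 5.66 ± 0.406 FPKM with scrambled siRNA (log2 fold change 0.47, SE 0.07, adjusted p = 0.0028). Mrpl19, the relative of bacterial L19, a protein at the face that meets the small subunit, stood at 6.36, 6.47 and 6.1 FPKM after TFEB siRNA, against 4.87, 4.51 and 4.62 FPKM after scrambled siRNA. The libraries within each group were close to each other and the groups lay well apart (log2 fold change 0.40, SE 0.06, adjusted p = 0.00314). Both calls held when any 1 library was left out (highest adjusted p 0.0135 for Mrpl21 and 0.0156 for Mrpl19). Mrpl21 overlaps Ighmbp2 and Mrpl19 overlaps Gcfc2 on the opposite strand.

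Mrpl22, whose bacterial relative lines the tunnel through which the new peptide leaves, stood at 17.1, 14 and 16 FPKM in the TFEB siRNA libraries, against 13.3, 12.5 and 12.9 FPKM in the scrambled siRNA libraries. Mrpl39, a mitochondria-specific protein, stood at 17.6, 17.8 and 19.8 FPKM with TFEB siRNA and at 15.1, 15.3 and 16.3 FPKM with scrambled siRNA. Mrpl45, which sits at the tunnel exit and helps to hold the ribosome at the inner membrane, stood at 12.4, 13.1 and 11.6 FPKM after TFEB siRNA, against 11, 10.7 and 10.3 FPKM after scrambled siRNA. In each of these the groups did not overlap, and the log2 fold changes were 0.27 (SE 0.08) for Mrpl22, 0.24 (SE 0.06) for Mrpl39 and 0.20 (SE 0.06) for Mrpl45. The adjusted p-values were 0.0343, 0.0270 and 0.0428 in that order of genes. Left-out libraries ended the call of Mrpl22 in 5 cases, of Mrpl39 in 4 and of Mrpl45 in 5, with adjusted p-values of up to 0.0961, 0.0773 and 0.130, and 33.4% of the 50-base words of Mrpl22 recur in the pseudogene AC124709.1.

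In the small subunit, Mrps28, Mrps21 and Mrps24 fell and none was called higher. Mrps28, a small subunit protein named as the mitochondrial relative of bacterial S1, lies at chr3:8802146-8923918 on the minus strand and stood at 9.12, 11.8 and 13.6 FPKM in the TFEB siRNA libraries, against 17.8, 16.5 and 16.9 FPKM in the scrambled siRNA libraries. TFEB siRNA replicate 1 was the lowest and all 3 TFEB siRNA libraries lay below the scrambled siRNA libraries. The mean was 1.48-fold lower, at 11.5 ± 2.26 FPKM with TFEB siRNA and 17 ± 0.665 FPKM with scrambled siRNA (SD, n = 3 each; log2 fold change -0.56, SE 0.13, adjusted p = 0.0167). The call held when any 1 library was left out (highest adjusted p 0.0478), although Mrps28 overlaps Gm15466 on its own strand and Gm15467 on the other.

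Mrps21, the relative of bacterial S21, stood at 37.1, 30.5 and 35.4 FPKM with TFEB siRNA and at 45.4, 40.3 and 43.9 FPKM with scrambled siRNA. Its groups did not overlap (log2 fold change -0.33, SE 0.08, adjusted p = 0.0236). This call was lost without scrambled siRNA replicate 1 or 3 (up to 0.0731). Mrps24, the relative of bacterial S3, which lies where the messenger RNA enters the ribosome, stood at 10.0, 11.5 and 10.9 FPKM after TFEB siRNA, against 12, 12.7 and 14.1 FPKM after scrambled siRNA. The groups were close but did not overlap (log2 fold change -0.25, SE 0.08, adjusted p = 0.0495). Mrps24 lost its call without any of 5 libraries (up to 0.144), and it overlaps Urgcp on the same strand.

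**Figure D2:**
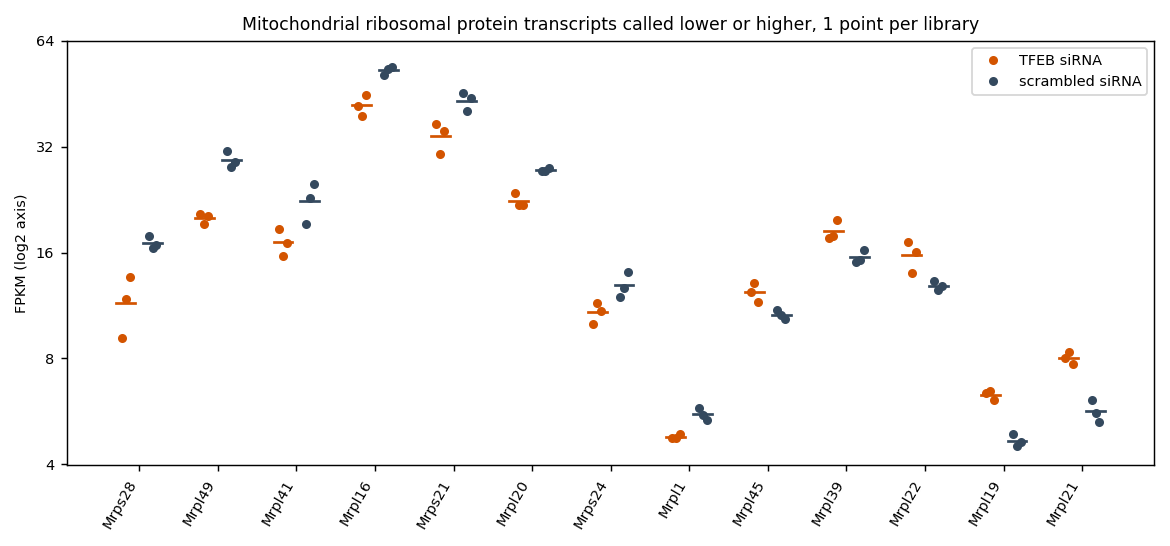
FPKM on a log2 axis for the 13 members called lower or higher, with 1 point per library, a line at each group mean and TFEB siRNA left of scrambled siRNA. The groups did not overlap in any of the 13, and the widest ratios of means were 1.48-fold lower for Mrps28 and 1.42-fold higher for Mrpl21.

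Summed over the subunit, the small subunit transcripts were at 297.4, 313.4 and 316 FPKM in the TFEB siRNA libraries and at 324.3, 332.2 and 337.8 FPKM in the scrambled siRNA libraries. These sums did not overlap and averaged 308.9 ± 10.1 FPKM with TFEB siRNA and 331.4 ± 6.75 FPKM with scrambled siRNA. They take in every Mrps symbol, also Mrps18a, Mrps30 and Mrps36, which are described below. They also hold the called members, so they are not separate from those calls. Mrps21 alone averaged 34.4 FPKM with TFEB siRNA and 43.2 FPKM with scrambled siRNA, and Mrps28 averaged 11.5 and 17 FPKM. Of the 29 small subunit members 19 had a log2 fold change below 0. The large subunit sums were 627.1, 666 and 674.5 FPKM with TFEB siRNA and 656.1, 701.5 and 708.3 FPKM with scrambled siRNA, and they overlapped. Within same-numbered libraries TFEB siRNA minus scrambled siRNA was -29, -35.5 and -33.8 FPKM for the large subunit sum and -26.9, -18.8 and -21.8 FPKM for the small subunit sum, so each number gave the same direction in both subunits. In both groups replicate 1 had the lowest sum of each subunit. Whether the subunits differ from each other was not tested.

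Levels over all 6 libraries ran from 1.22 to 47.3 FPKM in the large subunit, with a median of 12.5 FPKM, and from 1.70 to 40.4 FPKM in the small subunit, with a median of 8.26 FPKM. Next to Mrpl16, the highest large subunit levels belonged to Mrpl34 and Mrpl43. Mrpl34, the relative of bacterial L34, stood at 31.4, 49.1 and 43.1 FPKM in the TFEB siRNA libraries, against 32.9, 51.1 and 54.8 FPKM in the scrambled siRNA libraries. Replicate 1 was the lowest library in both groups and the groups overlapped (log2 fold change -0.15, SE 0.23, adjusted p = 0.636). Mrpl43, a mitochondria-specific protein, stood at 30.8, 36.7 and 41.2 FPKM with TFEB siRNA and at 38.8, 46.7 and 47.1 FPKM with scrambled siRNA. It was not called without a block (log2 fold change -0.29, SE 0.12, adjusted p = 0.11) and was called lower with the replicate number as a block (adjusted p = 0.00878).

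The highest small subunit levels belonged to Mrps21, Mrps6 and Mrps7. Mrps6, the relative of bacterial S6, stood at 36.9, 41.5 and 44.7 FPKM after TFEB siRNA, against 35, 43.8 and 40.5 FPKM after scrambled siRNA. Its groups overlapped (log2 fold change 0.05, SE 0.10, adjusted p = 0.76), and 32.2% of its 50-base words recur in other genes, Slc5a3 among them. Mrps7, whose bacterial relative starts the assembly of the head of the small subunit, stood at 19.8, 21.3 and 19.4 FPKM in the TFEB siRNA libraries, against 19.9, 19.8 and 20.7 FPKM in the scrambled siRNA libraries. Its groups overlapped and the log2 fold change was 0.00, with a 95% interval from -0.13 to 0.13 (adjusted p = 0.989).

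The lowest tested members were Mrpl23 and Mrpl15 of the large subunit and Mrps35 and Mrps10 of the small subunit. Mrpl23, whose bacterial relative lies at the tunnel exit, stood at 1.08, 1.63 and 1.07 FPKM with TFEB siRNA and at 1.17, 1.06 and 1.32 FPKM with scrambled siRNA, and 51.7% of its 50-base words recur in the pseudogene Mrpl23-ps1. Mrpl15, the relative of bacterial L15, stood at 3.09, 3.22 and 3.02 FPKM after TFEB siRNA, against 3.09, 2.94 and 2.61 FPKM after scrambled siRNA. The groups overlapped in both genes, and neither was called (adjusted p = 0.827 for Mrpl23 and 0.402 for Mrpl15). Mrps35, a mitochondria-specific protein, stood at 1.63, 2.06 and 1.98 FPKM in the TFEB siRNA libraries, against 1.37, 1.51 and 1.65 FPKM in the scrambled siRNA libraries. The groups overlapped in 1 library only (log2 fold change 0.25, SE 0.12, adjusted p = 0.149). Mrps10, the relative of bacterial S10, stood at 2.4, 2.51 and 2.49 FPKM with TFEB siRNA and at 2.22, 2.45 and 2.44 FPKM with scrambled siRNA, with overlapping groups (log2 fold change 0.05, SE 0.08, adjusted p = 0.685).

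These levels depend on the gene length used. For 71 of the 78 members the deposited length was that of all annotated exons joined, and in 18 tested members it was more than 2 times the longest coding transcript. The ratio was 15.3 for Mrpl33, 7.26 for Mrps10 and 6.63 for Mrpl23, so their FPKM understates the level of a spliced transcript. Mrpl16, Mrpl43 and Mrps6, among the highest members, were not scaled by joined exons. Their deposited lengths were 1122, 1213 and 1053 bases, beside 3169, 1520 and 1533 bases for the exons joined. On the joined length their FPKM would be lower, so their ranks depend on the length used. The length is the same in every library and enters a fold change only through the pseudocount of 0.5 FPKM.

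Mrpl48 and Mrpl53 did not pass the filter. Mrpl48 stood at 0.725, 0.66 and 0.565 FPKM after TFEB siRNA, against 1.17, 0.812 and 1.05 FPKM after scrambled siRNA, or 304 reads in all with TFEB siRNA and 514 with scrambled siRNA. Its groups did not overlap, and with no filter the log2 fold change was -0.39 with an adjusted p of 0.191. Mrpl53 had 0 reads in every library. All of its 50-base words (100%) recur in Gm42688, an overlapping gene on the same strand, which had 51 reads with TFEB siRNA and 68 with scrambled siRNA.

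Mammals have 3 paralogues of bacterial S18, namely Mrps18a, Mrps18b and Mrps18c. In mammalian structures Mrps18b and Mrps18c lie in the small subunit, while Mrps18a is a part of the large one. Mrps18a stood at 5.95, 6.54 and 6.47 FPKM in the TFEB siRNA libraries, against 5.38, 5.36 and 6.48 FPKM in the scrambled siRNA libraries (log2 fold change 0.13, SE 0.09, adjusted p = 0.278). Mrps18b stood at 8.92, 7.92 and 8.62 FPKM with TFEB siRNA and at 8.89, 8.31 and 8.61 FPKM with scrambled siRNA (log2 fold change -0.02, SE 0.06, adjusted p = 0.836), and Mrps18c stood at 6.69, 6.65 and 6.2 FPKM after TFEB siRNA, against 6.6, 8 and 7.24 FPKM after scrambled siRNA (log2 fold change -0.15, SE 0.08, adjusted p = 0.195). The groups overlapped in each of them and none was called.

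Mrps30 and Mrps36 are also named after the small subunit without being part of it in mammals. Mrps30 belongs to the large subunit. It stood at 3.51, 2.89 and 3.41 FPKM in the TFEB siRNA libraries, against 3.59, 3.53 and 3.68 FPKM in the scrambled siRNA libraries, with every TFEB siRNA library below every scrambled siRNA library (log2 fold change -0.13, SE 0.09, adjusted p = 0.296). Mrps36 is known as a subunit of the 2-oxoglutarate dehydrogenase complex of the citric acid cycle. It stood at 6.39, 5.58 and 6.42 FPKM with TFEB siRNA and at 6.93, 7.51 and 6.83 FPKM with scrambled siRNA, again without overlap but not called (log2 fold change -0.20, SE 0.07, adjusted p = 0.0816), and 33.7% of its 50-base words recur in pseudogenes.

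Of 6 further mitoribosomal proteins with other symbols, 5 were found in the table and tested, and 2 were higher and 1 lower. That is 60% called, against 33.3% of all genes tested and 17.1% of the 76 members. With only 5 genes the share is coarse, and the difference was not tested. Aurkaip1, a small subunit protein also known to bind Aurora A kinase, stood at 27.6, 29.4 and 31.1 FPKM after TFEB siRNA, against 37.1, 39.7 and 42.5 FPKM after scrambled siRNA, without overlap (log2 fold change -0.43, SE 0.07, adjusted p = 0.0043). Chchd1, a small subunit protein with a twin CX9C fold, stood at 28.8, 28.7 and 28.3 FPKM in the TFEB siRNA libraries, against 24.3, 24.4 and 20.9 FPKM in the scrambled siRNA libraries, again without overlap (log2 fold change 0.30, SE 0.07, adjusted p = 0.0155). Ptcd3, a pentatricopeptide protein of the small subunit, averaged 11.2 ± 0.323 FPKM with TFEB siRNA and 9.86 ± 0.341 FPKM with scrambled siRNA (log2 fold change 0.18, SE 0.05, adjusted p = 0.0403). Dap3, the GTP-binding protein of the small subunit, and Gadd45gip1 of the large subunit were not called (adjusted p = 0.165 for Dap3 and 0.870 for Gadd45gip1). With subunits set by place in the ribosome, these proteins included, the small subunit had 2 members higher and 4 lower of 30, with a median log2 fold change of -0.04 in place of -0.09.

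Replicate 1 stood apart from replicates 2 and 3 in both groups for a part of the members, in either direction. It was the lowest library of both groups for 26 of 76 members (34.2%; 20.4% of all genes tested) and the highest for 10 (13.2%; 19.4%). The median deviation of replicate 1 from the other libraries was near 0, at -0.0069 on the log2 scale over the members and 0.0070 over all genes tested. Over the 76 members, the deviation of replicate 1 from the other libraries correlated between the TFEB siRNA and the scrambled siRNA group with a Pearson r of 0.599 and a Spearman rho of 0.501, as a description across genes that share these libraries. The mean deviation ran with GC content of the longest coding transcript at a Spearman rho of -0.493.

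Mrps34, Mrpl34 and Mrpl52 deviated most, and were picked after their values were seen. Mrps34, a mitochondria-specific protein of the small subunit, stood at 4.81, 10.2 and 8.1 FPKM with TFEB siRNA and at 6.7, 9.41 and 10.3 FPKM with scrambled siRNA. Mrpl52, a large subunit protein, stood at 10.8, 14.9 and 17.6 FPKM after TFEB siRNA, against 12, 16.9 and 15.1 FPKM after scrambled siRNA. In both genes the library numbered 1 was the lowest of each group and the groups overlapped, with SEs of the log2 fold change of 0.27 for Mrps34 and 0.19 for Mrpl52. With the replicate number as a block the SE of Mrps34 was 0.11, and it was not called.

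With the replicate number as a block, 7 large subunit members were higher and 5 lower, and 0 small subunit members were higher and 4 lower, where 40.2% of all genes tested were called. The calls gained were Mrpl43 (lower), Mrpl24 (higher, adjusted p = 0.00876), Mrpl42 (higher, 0.0469) and Mrps31 (lower, 0.0388), and Mrpl1 was lost. Mrpl24 stood at 19, 17.6 and 15.6 FPKM in the TFEB siRNA libraries, against 16, 14.3 and 13.2 FPKM in the scrambled siRNA libraries. The same-numbered libraries each differed in the same direction although the groups overlapped. With the libraries numbered 1 left out of both groups, 2 large subunit members were higher and 5 lower, and 0 small subunit members were higher and 2 lower, where 24.6% of all genes tested were called.

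**Figure D3:**
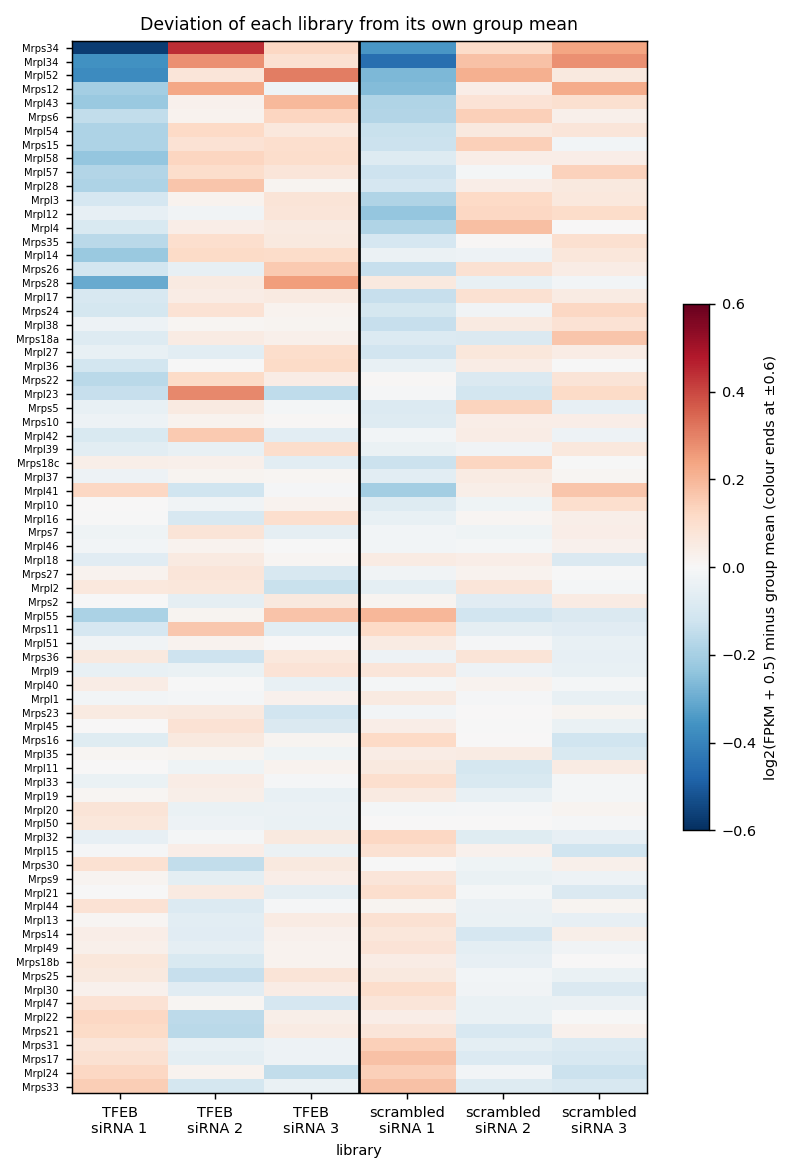
Deviation of log2(FPKM + 0.5) of each library from the mean of its own group for the tested members, with TFEB siRNA replicates 1 to 3 left and scrambled siRNA replicates 1 to 3 right. Replicate 1 of both groups is the lowest library for 26 of the 76 members.

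Many of these genes start head to head with a neighbour. Of 76 tested members 26 (34.2%) had a protein-coding gene on the opposite strand whose start lay at most 1000 bases upstream or overlapped by at most 500 bases, against 15.7% of 10534 tested protein-coding genes. Noncoding neighbours were not counted. Of the 23 with both genes tested, 16 had the same sign in member and partner, with a Pearson r of 0.33 and a Spearman rho of 0.25 over pairs of fold changes from the same libraries. Mrpl46 and Mrps11 are each other's partner and count in both places. Mrpl41 and Pnpla7 were both called, and both lower. The starts lie 935 bases apart, and Pnpla7, a lysophospholipase, averaged 2.38 ± 0.153 FPKM with TFEB siRNA and 3.41 ± 0.338 FPKM with scrambled siRNA (log2 fold change -0.44, adjusted p = 0.0122).

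In other pairs the member and its partner were not both called. Mrpl49 starts 137 bases from Fau, which encodes ribosomal protein eS30 fused to a ubiquitin-like protein. Fau averaged 166 ± 14.6 FPKM with TFEB siRNA and 195 ± 16 FPKM with scrambled siRNA, and was not called (log2 fold change -0.23, adjusted p = 0.0870). Ighmbp2, a helicase gene whose start overlaps that of Mrpl21 by 116 bases, had a log2 fold change of 0.05 (adjusted p = 0.705) beside 0.47 for Mrpl21. Gga3, an adaptor for sorting at the Golgi that faces Mrps7, was higher at a log2 fold change of 0.41 (adjusted p = 0.0062) beside 0.00 for Mrps7. Sars2, the mitochondrial seryl-tRNA synthetase that faces Mrps12, was higher at 0.33 (adjusted p = 0.0216) beside -0.16 for Mrps12. The differences within pairs were not tested.

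**Figure D4:**
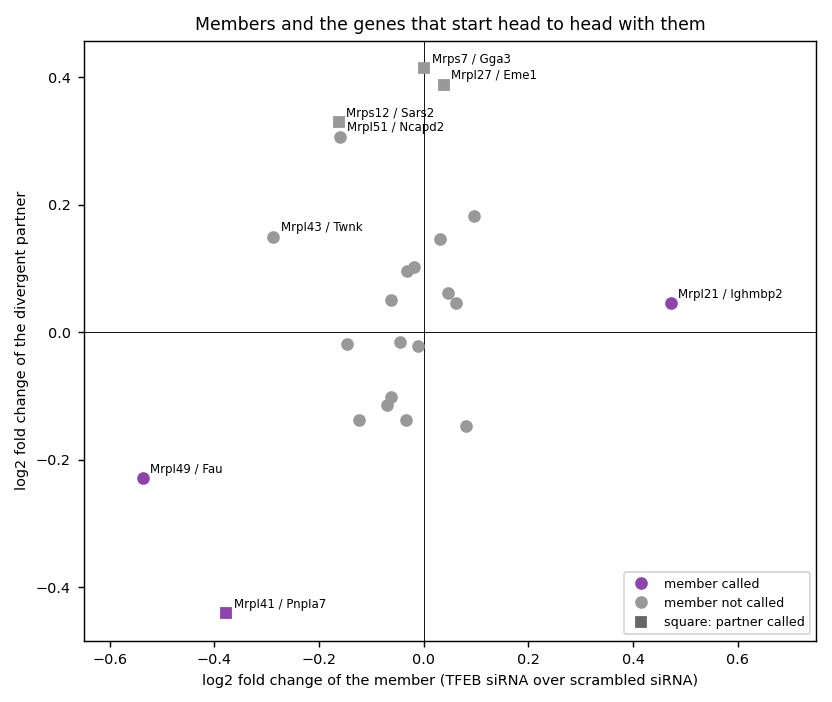
Log2 fold change of each member (x axis) against that of the gene that starts head to head with it (y axis), TFEB siRNA over scrambled siRNA, for the 23 cases with both genes tested. Mrpl41 and Pnpla7 are low on both axes, while Mrpl21 lies far to the right with its partner Ighmbp2 near 0 and Mrps7 lies at 0 with Gga3 at 0.41.

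Promoter windows of 250 bases before to 50 bases after the start were taken from RefSeq (GRCm38.p6) and were found for 69 of the 78 members. NRF1, the ETS factor GABPA and YY1 are known regulators of nuclear genes for mitochondrial proteins. Both strands were searched for the NRF1 word GCGCATGCG, the ETS word CCGGAAG and the YY1 word AAGATGGCG. They were found in 7 (10.1%), 26 (37.7%) and 8 (11.6%) of the 69 members, and in 4.52%, 21.8% and 3.97% of 8495 tested genes with a window. Unlike that comparison set, the 69 include the untested Mrpl48 and Mrpl53, and both hold the ETS word. The E-box CACGTG was found in 5 members (7.25%; 12.1% of tested genes with a window), namely Mrpl2, Mrpl20, Mrpl36, Mrpl37 and Mrps18c. Its extended form TCACGTGA, the core of the CLEAR element, which contains the E-box, was in 2 members (2.90%; 2.44%), Mrpl2 and Mrps18c.

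Of the members with the E-box, Mrpl20 was lower and the other 4 were not called. The windows of both genes with the CLEAR core are printed to show where it lies, 132 bases before the first listed start of Mrpl2 and 164 in Mrps18c, and those of Mrpl49, Mrpl21 and Mrpl22 as called members. The printed called members are examples and do not stand for the rest. Elsewhere, the lower members Mrps21 (ETS), Mrps24 (YY1) and Mrpl20 (E-box) and the higher member Mrpl39 (NRF1) held a word. The lower members Mrpl41, Mrpl16 and Mrpl1 and the higher member Mrpl45 held none. A link between words and direction was not tested. Capitals mark the searched words; in Mrps18c the CLEAR core runs into an ETS word, in Mrpl21 the capitals are an ETS word 7 bases after the start, and in Mrpl22 they are an ETS word and then an NRF1 word.
Mrpl2 (chr17:46645971-46646270, plus strand): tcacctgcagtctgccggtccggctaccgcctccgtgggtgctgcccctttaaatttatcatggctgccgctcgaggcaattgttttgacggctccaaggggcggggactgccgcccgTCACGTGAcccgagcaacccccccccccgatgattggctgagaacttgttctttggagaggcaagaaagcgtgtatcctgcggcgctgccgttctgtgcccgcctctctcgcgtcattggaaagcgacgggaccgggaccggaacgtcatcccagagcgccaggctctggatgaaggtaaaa
Mrps18c (chr5:100798509-100798808, plus strand): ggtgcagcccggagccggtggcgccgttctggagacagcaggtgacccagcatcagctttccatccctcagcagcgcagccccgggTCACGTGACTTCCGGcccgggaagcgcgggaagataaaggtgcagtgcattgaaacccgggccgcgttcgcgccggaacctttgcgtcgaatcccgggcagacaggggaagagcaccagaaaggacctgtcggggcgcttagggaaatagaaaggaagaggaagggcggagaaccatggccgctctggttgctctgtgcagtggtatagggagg
Mrpl49 (chr19:6057706-6058005, minus strand): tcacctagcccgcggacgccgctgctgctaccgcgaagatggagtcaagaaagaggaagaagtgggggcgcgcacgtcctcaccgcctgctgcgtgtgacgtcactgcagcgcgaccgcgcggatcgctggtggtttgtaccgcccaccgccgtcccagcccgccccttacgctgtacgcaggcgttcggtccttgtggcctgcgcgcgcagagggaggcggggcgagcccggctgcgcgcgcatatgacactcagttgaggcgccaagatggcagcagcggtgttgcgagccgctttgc
Mrpl21 (chr19:3282792-3283091, plus strand): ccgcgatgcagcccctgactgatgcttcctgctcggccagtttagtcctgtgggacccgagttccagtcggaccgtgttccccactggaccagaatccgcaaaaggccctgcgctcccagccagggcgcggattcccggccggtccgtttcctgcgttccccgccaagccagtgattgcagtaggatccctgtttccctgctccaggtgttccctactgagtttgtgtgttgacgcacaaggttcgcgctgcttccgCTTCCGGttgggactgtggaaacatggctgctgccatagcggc
Mrpl22 (chr11:58171414-58171713, plus strand): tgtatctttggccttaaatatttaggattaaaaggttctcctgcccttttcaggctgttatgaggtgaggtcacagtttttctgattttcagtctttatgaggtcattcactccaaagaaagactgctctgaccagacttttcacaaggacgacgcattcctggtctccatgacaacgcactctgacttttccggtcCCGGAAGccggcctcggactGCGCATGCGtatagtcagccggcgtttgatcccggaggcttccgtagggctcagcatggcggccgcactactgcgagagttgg
Mrpl2, the relative of bacterial L2 at the peptidyl transferase centre, stood at 22.6, 22.7 and 19.7 FPKM with TFEB siRNA and at 22.2, 24.4 and 23 FPKM with scrambled siRNA. Its groups overlapped and it was not called (log2 fold change -0.10, SE 0.07, adjusted p = 0.335), like Mrps18c above. A match describes letters only, and a window without one says nothing about binding.

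Earlier work on these data grouped heptamers of the 3′ UTR (7-base words) by whether genes that hold them were low or high in the TFEB siRNA libraries, so the shares that follow are a description. Falling heptamers were CTACATA with its form shifted by a base, TACATAA, together with GGCCATG and its shifted form GCCATGA. Rising heptamers were TCGGAGA with its shifted form CGGAGAA, together with TGTCACG and its shifted form GTCACGA. A falling one occurred in 14 of 76 tested members (18.4%), against 30.9% of 10473 tested genes with an annotated 3′ UTR, and a rising one in 5 members (6.58%), against 7.84%. The members' 3′ UTRs were short, with a median of 388.5 bases, against 1200 bases. Among the 8 lower members 1 (12.5%) carried a falling word, while 46.1% of lower genes at large did, and of the 5 higher members 1 (20%) held a rising one, while 15.1% of higher genes at large did.

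That lower member was Mrpl1, with 3 falling and 1 rising site, and the higher one was Mrpl19, with 2 rising sites. The sites are printed with their flanks as the only ones in called members, the heptamer in capitals.
Mrpl1, base 1651 of the 3′ UTR (CTACATA, falling): tagtattcggtCTACATAtatgtaagtat
Mrpl1, base 579 (GGCCATG, falling): acccgcacggaGGCCATGctgcacatctg
Mrpl1, base 1359 (GGCCATG, falling): attggatgcaaGGCCATGtgcatgctagg
Mrpl1, base 246 (TGTCACG, rising): gatttggatccTGTCACGttttctttttt
Mrpl19, base 893 (TGTCACG, rising): tggatgaagtaTGTCACGgtgggggtggg
Mrpl19, base 2443 (TGTCACG, rising): tccaagatcagTGTCACGtacacttcaga
Of these, Mrpl1 had the smallest fold change of the called members and Mrpl19 one of the largest. Mrpl48, under the filter, holds TACATAA.

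Other parts of mitochondrial gene expression also held calls in both directions. All shares called here stand beside 33.3% of all genes tested. Of 28 tested assembly factors of the mitochondrial ribosome 3 were higher, 3 lower and 22 not called (21.4% called), with a median log2 fold change of 0.02. Mettl17, which binds the small subunit during assembly, was higher (log2 fold change 0.41, SE 0.12, adjusted p = 0.0324), as was Afg3l2, a protease of the inner membrane that processes Mrpl32 (log2 fold change 0.29, SE 0.05, adjusted p = 0.00588). Mrm1, a methyltransferase of the large mitochondrial ribosomal RNA, averaged 2.13 ± 0.404 FPKM with TFEB siRNA and 3.57 ± 0.782 FPKM with scrambled siRNA and was lower (log2 fold change -0.62, SE 0.17, adjusted p = 0.0271). Trmt2b, which methylates mitochondrial tRNA and ribosomal RNA, averaged 3.02 ± 0.337 FPKM with TFEB siRNA and 4.61 ± 0.274 FPKM with scrambled siRNA and was lower too (log2 fold change -0.54, SE 0.09, adjusted p = 0.00501).

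Of 15 translation factors 2 were higher, 1 lower and 12 not called (20% called). Gfm1, the elongation factor that moves the ribosome along, and Tufm, which delivers tRNA, were higher by log2 fold changes of 0.20 and 0.19, and Taco1, an activator of Cox1 translation, was lower (-0.41). Of 22 mitochondrial aminoacyl-tRNA synthetases and related enzymes 3 were higher, 2 lower and 17 not called (22.7% called). Fars2 (0.51) and Gatb (0.49) were higher, and Mars2 (-0.56) and Pars2 (-0.34) were lower. Of 21 genes of mitochondrial transcription and RNA processing 1 was higher, the RNA stabilizer Lrpprc (0.18), and 1 lower, the RNA granule protein Grsf1 (-0.30), which is 9.52% called.

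Of 15 ribosomal and messenger RNAs of mitochondrial DNA 0 were called by limma in either direction, with a median log2 fold change of 0.13 and a range of -0.06 to 0.78. Their summed levels were 11238 to 12708 FPKM with TFEB siRNA and 10482 to 11227 FPKM with scrambled siRNA. These sums did not overlap, by a narrow gap, and the difference was not tested. At an unadjusted p below 0.05 there were 3 higher and 0 lower, and 2 were called higher with voom weights on the recovered reads and 2 with the replicate number as a block. mt-Rnr1, the RNA of the small subunit, stood at 215, 190.3 and 216 FPKM after TFEB siRNA, against 189, 175 and 177 FPKM after scrambled siRNA, and the groups did not overlap (log2 fold change 0.20, SE 0.07, adjusted p = 0.0631). mt-Rnr2, the RNA of the large subunit, stood at 329, 329 and 370.4 FPKM in the TFEB siRNA libraries, against 334, 352 and 382 FPKM in the scrambled siRNA libraries, with overlapping groups (log2 fold change -0.06, SE 0.08, adjusted p = 0.622). Replicate 1 stood high in both groups for some short mitochondrial messengers: mt-Co2, a subunit of cytochrome c oxidase, stood at 59.9, 26.8 and 29.9 FPKM with TFEB siRNA and at 59.2, 24 and 28.9 FPKM with scrambled siRNA. The levels of ribosomal RNA depend on how total RNA was depleted or selected, which the labels do not give.

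Among 8 tested regulators of these genes 1 was higher, 2 lower and 5 not called (37.5% called). Pprc1, a coactivator of NRF1 related to PGC-1, stood at 15.2, 15.2 and 15.2 FPKM after TFEB siRNA, against 11.4, 11 and 10.3 FPKM after scrambled siRNA, with nearly equal TFEB siRNA libraries all above the scrambled siRNA libraries (log2 fold change 0.47, SE 0.05, adjusted p = 0.00127). Yy1 averaged 19.6 ± 0.986 FPKM with TFEB siRNA and 22.5 ± 0.669 FPKM with scrambled siRNA (log2 fold change -0.20, SE 0.06, adjusted p = 0.0334), and Gabpb1, a subunit of the GABP complex, was lower as well (log2 fold change -0.22, SE 0.06, adjusted p = 0.0279). Of 76 tested cytosolic ribosomal proteins, a family known for its many processed pseudogenes, 11 were higher, 1 lower and 64 not called (15.8% called, beside 33.3% of all genes tested), with a median log2 fold change of 0.06. Rpl6 (0.43) was among the higher ones, and Rps23 (-0.36) was the lower one.

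**Figure D5:**
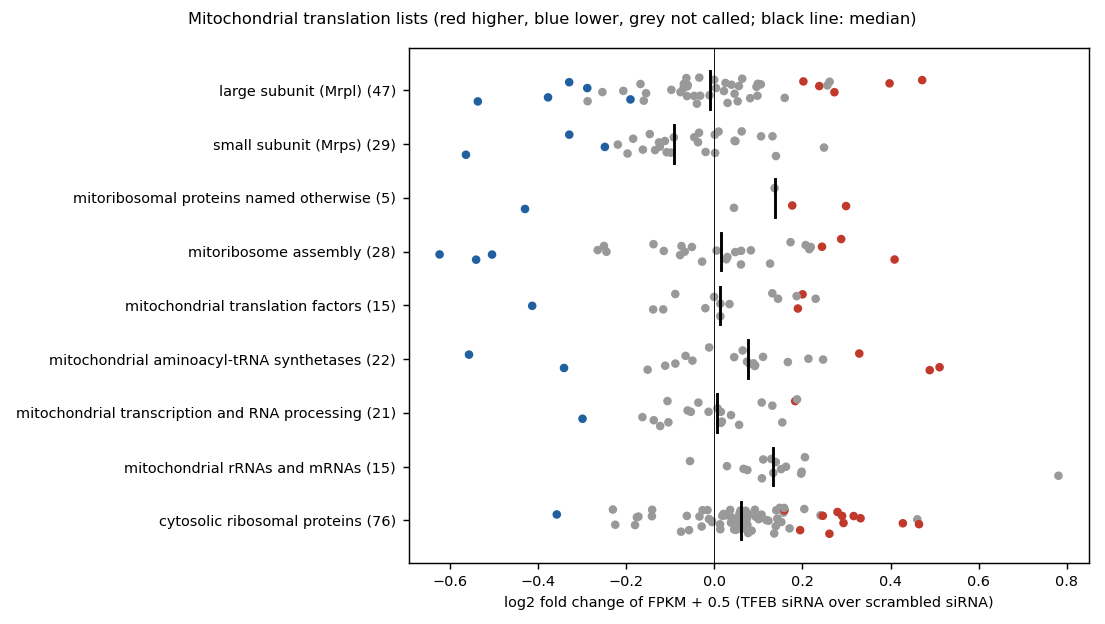
Log2 fold change, TFEB siRNA over scrambled siRNA, of every tested gene in the lists of mitochondrial translation and in the cytosolic ribosome, with red for called higher, blue for called lower, grey for not called, a black line at the list's median and the number tested in brackets. The medians run from -0.09 in the small subunit to 0.14 in the 5 mitoribosomal proteins named otherwise, and 13 of the 76 members are coloured.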

How the data were processed

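RNA sequencing of total RNA from 3 TFEB siRNA and 3 scrambled siRNA libraries was deposited as 1 table of FPKM values, made by the authors, beside gene positions and lengths, per the file headers. The build is mm10 in the submitters' processing notes, and the aligner, counter, annotation release and use of strand were not stated in the sources used here. There were 0 unused columns. Deposited FPKM values multiplied by gene length and by a depth factor found for each library came out as whole reads (100% of values, tolerance 1e-06), and the authors' FPKM were already scaled between libraries by median-ratio size factors. The 12257 genes that averaged at least 1 FPKM were tested with limma 3.58.1 (R 4.3.3) on log2(FPKM + 0.5), eBayes with a trend, two-sided, without a block, with Benjamini-Hochberg adjustment over all of them; every adjusted p is from this model unless another is named. Fold changes on that scale understate those of low genes. Groups were taken from the sample titles. The labels do not say whether replicates were separate cultures. The p-values therefore measure spread among these libraries alone, and it may be technical. All pairs of libraries differed by more than sampling noise (chi-square per gene 4.70 to 8.93 within groups and 31.8 to 40.9 between them).

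The members and lists were chosen with earlier results of these data known. Full values are given for called members (up to 8 each way per subunit), the 3 highest and 2 lowest members of each subunit, the Mrps18 paralogues, Mrps30, Mrps36 and up to 2 called genes each way per list; some genes picked this way are not reported here. Mrpl2, Mrpl24, Mrpl42, Mrpl46, Mrpl48, Mrpl52, Mrpl53, Mrps11, Mrps12, Mrps31, Mrps34 and the divergent partners were named after their values were seen. Residuals of same-numbered libraries correlated at 0.382, 0.129 and 0.166, all above 0.1, the bar for counting the numbers as pairs. TFEB siRNA replicate 2 with scrambled siRNA replicate 3 (0.106) passed that bar too, and the reverse (0.0996) came close. Residuals within a group sum to 0, so replicate 1 standing apart in both groups makes replicates 2 and 3 correlate in any order. These values therefore cannot decide whether replicates 2 and 3 are paired by number. The model has no block, and its blocked form is given where it changes a call. The titles give numbers and nothing more, so the pairing rests on the values. Alternatives were pseudocounts of 0.1 and 1, filters of none and 5 FPKM, TPM, quantile normalization, voom weights on the recovered reads, a replicate block, leaving out each library, and subunits by place in the ribosome; leaving out the libraries numbered 1 was added after seeing the data. Shared 50-base words, overlaps and 3′ UTRs come from GENCODE M21, promoters from RefSeq.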

Additional observations from a re-analysis of the deposited data

How the results depend on the processing

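Of the 13 called members, 6 kept their call without each library in turn and under all other settings but no filter: Mrpl49, Mrpl16, Mrpl20, Mrpl19, Mrpl21 and Mrps28. With no filter the first 5 kept it and Mrps28 did not (adjusted p = 0.0511). The large subunit had 5 members higher, but 3 with TPM, 3 with voom weights on recovered reads (which called 4501 genes in all), 2 with no filter, 2 without the libraries numbered 1 (chosen after seeing the data) and 2 to 4 with 1 library left out, the lowest without scrambled siRNA replicate 2. It had 5 lower, but 3 with no filter and 3 to 4 with 1 library left out, the lowest without TFEB siRNA replicate 2 or 3 or scrambled siRNA replicate 2 or 3. The small subunit had 0 higher, but 2 by place in the ribosome, and 3 lower, but 4 by place, 0 with no filter and 1 to 2 with 1 library left out, the lowest without scrambled siRNA replicate 3. The share of all genes called changed with the setting too, from 33.3% in the main fit. It was 11.8% with no filter, 22.7% to 27.9% with 1 library left out and 24.6% without the libraries numbered 1. With TPM it was 31.2%, and with voom weights 36.7%.

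The large subunit median log2 fold change was -0.0106 and ran from -0.0276 to 0.0296 with 1 library left out, positive without TFEB siRNA replicate 1. The small subunit median was -0.0917, with -0.125 for TPM, -0.132 for voom, -0.0411 by place and -0.0772 to -0.0542 with 1 library left out. The median of all genes stayed within -0.0156 and 0.0182, and the number of all genes called lay between 2783 (without scrambled siRNA replicate 3) and 4928 (replicate block). The replicate block gave 7 large subunit members higher and 5 lower and 0 and 4 in the small subunit, and changed 5 calls of members, given above; it changed no other.

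Over the 26 named members, 317 values under alternatives kept direction and side of the threshold, 52 lost the threshold, 4 gained it and 12 changed sign, all 12 in members that were not called. With 1 library left out, the log2 fold change ran from -0.3807 to 0.0262 for Mrpl34, from -0.0908 to 0.1284 for Mrpl23, from -0.0421 to 0.1197 for Mrps6, from -0.0542 to 0.0265 for Mrps18b and from -0.0385 to 0.0273 for Mrps7, which was also at -0.0273 with TPM and -0.0301 with voom. All 4 gains were of Mrpl43, called lower with TPM, voom, the replicate block and without the libraries numbered 1. The cause of these differences was not tested. Depth limits the lowest members most, such as Mrpl48 with 304 reads over 3 TFEB siRNA libraries; read numbers cover counting error only.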
